A study of Homo sapiens with 4 samples.

Results

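Band 9q34.11 is a Giemsa-negative band near the end of the long arm of chromosome 9, at chr9:130300001-133500000 in the hg19 build. It is 3.2 Mb long. Its CEBPB binding sites were collected as every peak, and every region found in both replicates, whose summit lay inside these limits. Replicate 1 had 243 of its 75169 peak intervals here, and replicate 2 had 294 of 97829. Of 25602 distinct regions in the authors' table of the irreproducible discovery rate (IDR), a score of how well the replicates' rankings match, 80 lay in the band. These regions, called reproducible below, are numbered R1 to R80 from the band's lower border. The band was chosen by its density of these same regions, so its density is given as a description with no test. The rest of 9q, taken as chromosome 9 past 70 Mb without the band, served for comparison with 784 regions in 68.0 Mb.

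The data came from NCM460, a human colon epithelial cell line grown in DMEM with fetal bovine serum, with no treatment named. An antibody to CEBPB was used to pull down chromatin in 2 ChIP samples, labelled as independent experiments, and 2 inputs without pull-down served as controls. Peaks were called for each ChIP sample over input. The peak lists hold no expression values, so the labelled cell type was not checked against markers.

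CEBPB is a basic leucine zipper transcription factor that binds DNA as a dimer and takes part in the acute phase response, in inflammation and in the differentiation of epithelial, fat and myeloid cells. Genes of the band include LCN2, which encodes an iron-scavenging acute phase protein secreted by inflamed epithelium, and PTGES, the inducible prostaglandin E synthase. Others are ENG, a coreceptor for ligands of the TGF-beta family, ASS1 of arginine synthesis, CDK9, the kinase that releases paused RNA polymerase II, and SPTAN1, a spectrin of the membrane skeleton. The band is gene-rich. These genes are background: no hg19 annotation of the whole band was used, and no site below is assigned to any of them.

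For each summit 3 quantities are given. Fold is the authors' enrichment over background, and it ranks peaks inside a list. Fragments are the extended ChIP reads stacked at the summit, recovered from fold and p. Background is the input level that the peak caller expected there, in expected fragments on the caller's scaled pileup. The implied ChIP depth of replicate 2 was 1.57 times that of replicate 1. This holds if reads were extended to the same length in both lists, which is not stated. Fragments set side by side below are raw numbers, not corrected for depth, unless regions of like height are named. Total read numbers are not held in the lists.

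Reproducible CEBPB sites were packed more closely in 9q34.11 than in any of the other 23 bands of 9q examined. The band held 25 regions per Mb (95% exact Poisson interval 19.8 to 31.1), against 11.5 in the rest of 9q (10.7 to 12.4), a ratio of 2.17. It makes up 4.49% of the area and held 9.26% of its regions. Band 9q31.3 followed at 23.9 regions per Mb (19.1 to 29.5), and the intervals of these bands overlapped. Each peak list alone gave a like excess, but the regions by which the band was chosen come from these lists, so this is no separate support. Replicate 1 had 75.9 peak intervals per Mb in the band and 33.7 in the rest of 9q, a ratio of 2.25. Replicate 2 had 91.9 and 43.4, a ratio of 2.12. Outside chromosome 9, only bands 20q13.13, 11q13.1 and 17q21.2 were set beside it, and the bands there were not ranked. Of these, 20q13.13 (27.6 per Mb) and 11q13.1 (26.4 per Mb) held more regions per Mb than 9q34.11, again with overlapping intervals. Band 17q21.2 held 24.4 per Mb. Intervals cover counting error only, and neighbouring sites are not independent.

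**Figure D1:**
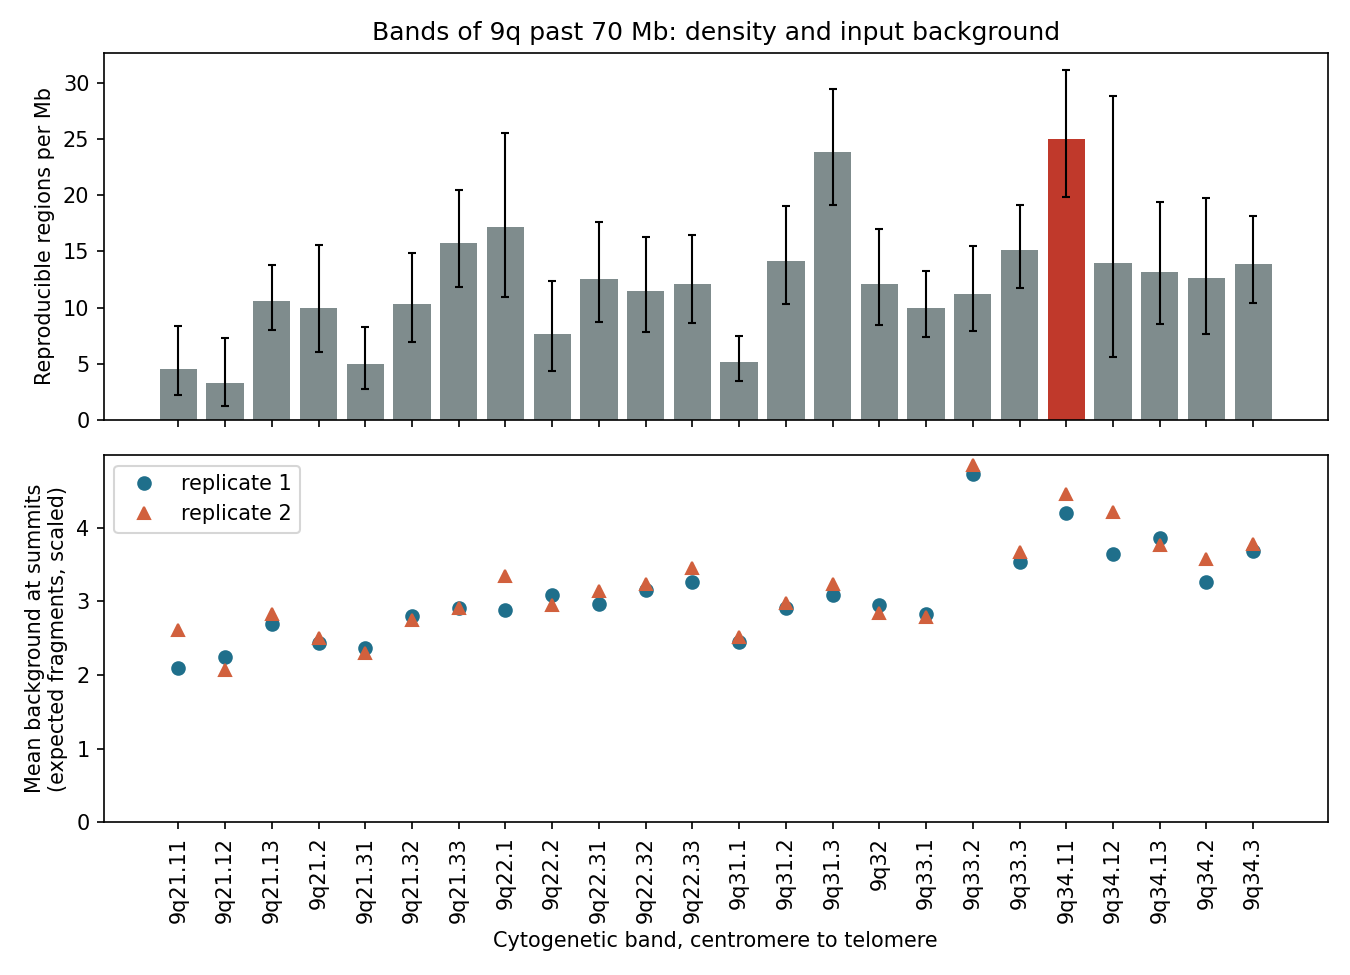
Bars (top) give reproducible CEBPB regions per Mb in each of 24 bands of 9q, with 95% exact Poisson intervals, and points (bottom) the mean background at all summits of each replicate, in expected fragments. Band 9q34.11, in red, is the densest at 25 per Mb and has the second highest background in both replicates, after 9q33.2.

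The sites of the band were ordinary in fold and tall in fragments. Across its 80 regions the fold ran from 7.74 through a median of 15.8 to 47.4 in replicate 1, and from 8.32 through 16.0 to 49.2 in replicate 2. The median of the mean fold was 15.9 in the band and 16.1 in the rest of 9q. Fragments, in contrast, had medians of 92.5 in replicate 1 and 118 in replicate 2, against 72 and 92 in the rest of 9q, ratios of 1.28 in both. Some single bands had higher medians: 9q33.2 (109 and 136), 9q34.12 (129 and 162, over 7 regions) and, in replicate 2 only, 9q34.3 (121). The tallest summit of the band reached 254 fragments in replicate 1 and 282 in replicate 2, below the highest of the whole lists at 299 and 312.

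The background under these sites was high as well. Over all summits of the band it averaged 4.20 expected fragments in replicate 1 and 4.45 in replicate 2, against 3.14 and 3.22 in the rest of 9q, ratios of 1.33 and 1.38. No summit of the band sat at the lowest background the caller allows, whereas 3.16% (78 summits) in replicate 1 and 5.19% (163 summits) in replicate 2 did so in the rest of 9q. If summits were independent, 0 of 263 in replicate 1 would allow a share of up to 1.14%, and 0 of 317 in replicate 2 one of up to 0.946%. These limits are 3 divided by the number of summits. Neighbouring summits are not independent, so the limits are too low, and the difference from the surroundings was not tested. Background and density did not go together in every band. Band 9q33.2 had the highest background, 4.73 and 4.85, with only 11.2 regions per Mb, and 9q31.3 was nearly as dense as 9q34.11 over backgrounds of 3.09 and 3.24. Over the 24 bands the mean background and the density had a Pearson r of 0.59 and a Spearman rho of 0.69, a description of points that share both libraries and the caller's input model. Inside the band the same pair over 16 windows of 200 kb had an r of 0.31 and a rho of 0.28. The part of the input background in the density of called regions was not tested.

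Fold divides the pileup by the background, and the excess of the band took a different course along fold than along fragments. The part of the background in this difference was not tested. Among regions with a mean fold of at least 10 the density ratio to the rest of 9q was 2.24 (76 regions of the band), at a minimum of 20 it was 1.90 (25 regions) and at 30 it was 1.81 (8 regions). At a mean fold of 40 or more the band held 1 region, a ratio of 0.69, and its interval of 0.0079 to 1.74 regions per Mb spans the 0.456 of the rest of 9q. By the fragments of both replicates together the ratio was 2.42 at a minimum of 100 (69 regions), 3.11 at 200 (44 regions), 3.62 at 300 (23 regions) and 3.90 at 400 (9 regions). Along fragments the ratio was thus higher at higher minimums, and along fold it was not. The minimums are nested, and counting error is wide. At 400 fragments the band's interval was 1.29 to 5.34 regions per Mb, against 0.72 in the rest of 9q. Whether the rise along fragments exceeds counting error was not tested. The band held 0.312% of all 25602 regions, a share at which few would fall among the strongest 500 by mean fold, and none did. Among the strongest 10% of all regions were 8 (10.0%) of the band's.

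**Figure D2:**
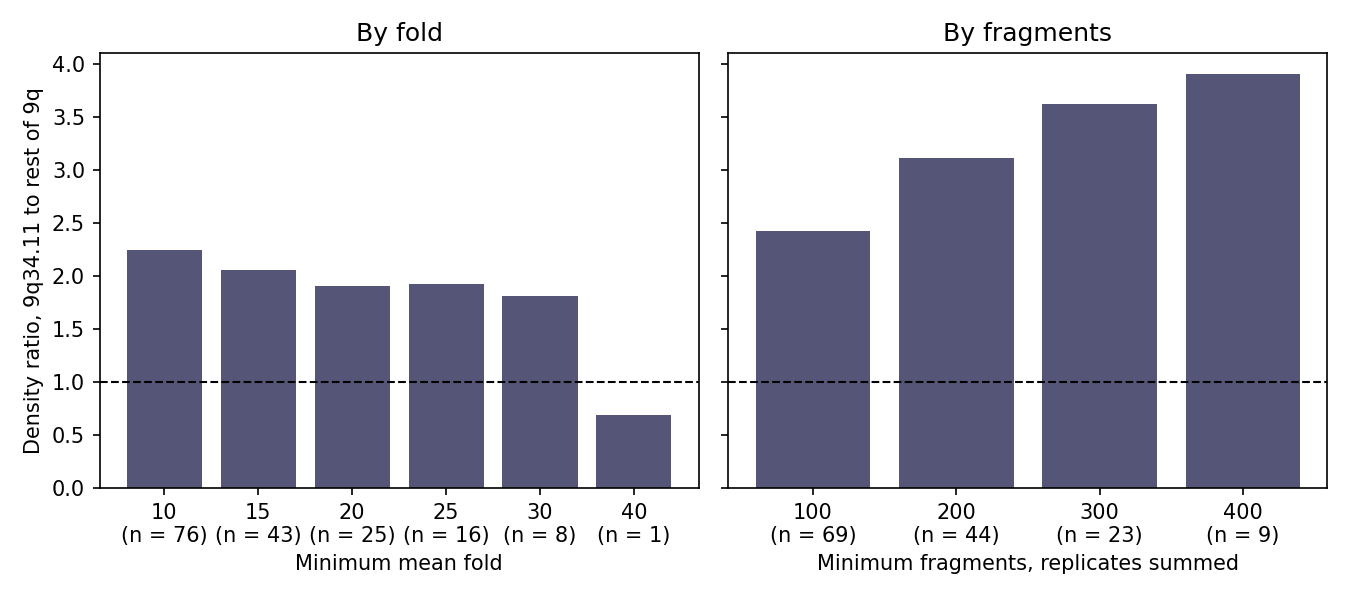
Bars give the ratio of region density in 9q34.11 to that in the rest of 9q, for regions above a minimum mean fold (left) or a minimum number of fragments summed over both replicates (right), with the number of band regions under each bar. The ratio goes from 2.24 to 0.69 along fold, where the last bar rests on 1 region, and from 2.42 to 3.90 along fragments.

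At like height the regions of the band stood on more background and so had less fold. Among regions with 300 or more fragments in both replicates together, the 23 of the band had a median fold of 27.0 over backgrounds of 5 and 5.46, and the 135 of the rest of 9q had 30.7 over 4.44 and 4.99. In the class of 200 to 299 fragments the medians of fold were 17.9 for 21 regions of the band and 22 for 166 of the rest, with backgrounds of 5 in both replicates against 4 and 3.74. The same order held under 100 fragments, with 10.3 for 11 regions and 11 for 178, and between 100 and 199, with 13.8 for 25 and 15 for 305. Regions of the band were also wider, at a median of 474 bp (quartiles 371 and 616 bp) against 437 bp, and 37 of 80 (46.3%) were at least 500 bp wide against 38.5% in the rest of 9q. Width and summed fragments had a Spearman rho of 0.54 over the 80 regions.

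The strongest sites were found along the whole band, with the largest number near its lower border. By mean fold the highest was R9 at chr9:130376909-130377720, 77.5 kb inside the band, with a fold of 44.7 in replicate 1 and 38.5 in replicate 2 (41.6 ± 4.42, SD, n = 2) and with 192 and 197 fragments. It stood on a low background for the band, 3 and 3.12 expected fragments, and held rank 582 among all 25602 regions. R25 at chr9:130911311-130911890 was next, with folds of 47.4 and 30.0 (38.7 ± 12.3, SD, n = 2) and 191 and 218 fragments. Against regions of like height its fragments were 1.01 times higher in replicate 2, and its background was 2.75 in replicate 1 and 4.84 in replicate 2. Of the 20 strongest regions, 7 lay in the first 200 kb of the band and 10 in the first 500 kb. Regions of any strength were also dense there: the first 200 kb held 11, and the first 500 kb held R1 to R21.

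R10 at chr9:130399573-130400234 had the largest difference in fold between the replicates, 26.6 and 49.2 (37.9 ± 15.9, SD, n = 2). Its summits held 229 and 228 fragments, over backgrounds of 7 and 2.73. Against regions of like height its fragments in replicate 2 were 0.899 times those of replicate 1, whereas its fold was higher in replicate 2. R73 at chr9:132830867-132831336 was further apart as a ratio, with folds of 32.8 and 15.1, fragments of 176 and 188 and backgrounds of 4 and 9. In all, 19 regions had folds at least 1.5 times apart, and in 16 of them the replicate with the lower fold had the higher background, as the make-up of the fold allows.

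Other strong sites were more even. R8 at chr9:130369441-130370115 had folds of 36.8 and 28.9 on 142 and 176 fragments, and R80 at chr9:133406313-133406788, the last region of the band, had 35.9 and 29.3 on 154 and 182. Near the lower border R3 at chr9:130327427-130327992 had folds of 29.4 and 35.8, and its neighbour R4 at chr9:130331759-130332275 had 25.6 and 37.7 on 248 fragments in each replicate. R45 at chr9:131622504-131623160, in the middle of the band, had folds of 33.5 and 29.9. R9, R25, R10, R8, R80, R3, R45 and R4 were the 8 regions of the band with a mean fold of 30 or more. The closest pair of folds among the leading 20 was that of R46 at chr9:131629654-131630276, 25.5 and 25.2 on 119 and 125 fragments.

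Ranks 9 to 20 had mean folds between 22.8 and 30.0. They were, in order, R66, R55, R20, R44, R6, R11, R49, R46, R79, R73, R18 and R17. R20 at chr9:130727670-130728176, rank 11 by fold, was the tallest site of the band by summed fragments, with 254 and 282 over backgrounds of 9 and 6. R78 at chr9:133321451-133321818 was the next tallest, with 241 and 262 fragments, but with folds of 24.9 and 13.2 over backgrounds of 8 and 15 it held only rank 30 by fold. Height and fold thus ordered these sites differently, and 14 of the 20 strongest regions by mean fold were also among the 20 tallest. The other 60 regions had mean folds from 9.08 to 22.3, with a median of 14.1. R71 at chr9:132697620-132698215 was the weakest by mean fold, with 9.52 and 8.65 on 40 and 42 fragments.

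**Figure D3:**
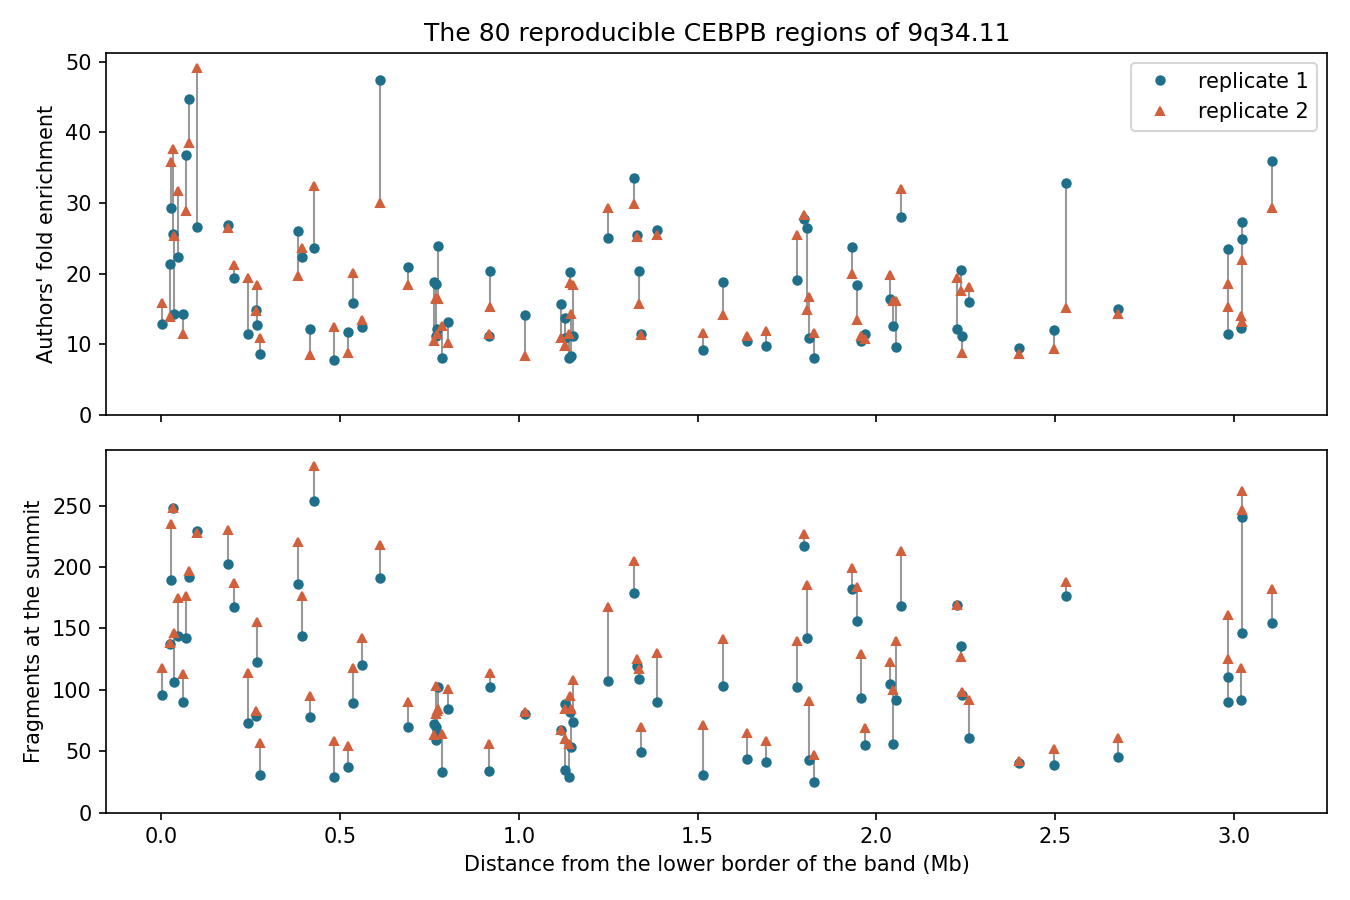
Each reproducible region of 9q34.11 is drawn at its distance from the band's lower border, with its fold (top) and its fragments at the summit (bottom) in replicate 1 (circles) and replicate 2 (triangles), joined by a line. The highest folds stand in the first 200 kb and near 0.61 Mb. Not corrected for depth, 72 of 80 regions have more fragments in replicate 2.

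Of the 80 regions, 7 had several entries in the authors' table. In 4 of them (R6, R12, R59 and R67) the entries rested on different pairs of summits, and in 3 (R10, R17 and R60) on a single pair. R67 at chr9:132524715-132525871 was the widest region of the band, 1157 bp, with 3 summits of 169, 76 and 84 fragments in replicate 1 and 169, 121 and 149 in replicate 2. R59 at chr9:132232538-132233314 had 2 summits 235 bp apart and of like height, 171 and 182 fragments in replicate 1 and 221 and 199 in replicate 2. R6 and R12 each paired a tall summit with one of 79 fragments or fewer.

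Sites were not spread evenly along the band. The first 1.6 Mb held 51 regions and the last 1.6 Mb held 29, of which 7 lay past 2.6 Mb. The first window of 200 kb had 11 regions, with a median fold of 27.0. Among the 339 windows of the rest of 9q the median was 2 regions and the highest 11. No window of the band was empty, whereas 87 (25.7%) of the rest were, and 8 of 16 windows of the band had 5 or more regions against 54 (15.9%) of the rest. Background was above the mean of the rest of 9q in 15 of 16 windows in replicate 1 and in 16 of 16 in replicate 2. It did not fall along the band as the region count did. The highest background was in the twelfth window in replicate 1, 5.06, and in the tenth in replicate 2, 6.35. These windows held 5 and 7 regions, against 11 in the first.

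**Figure D4:**
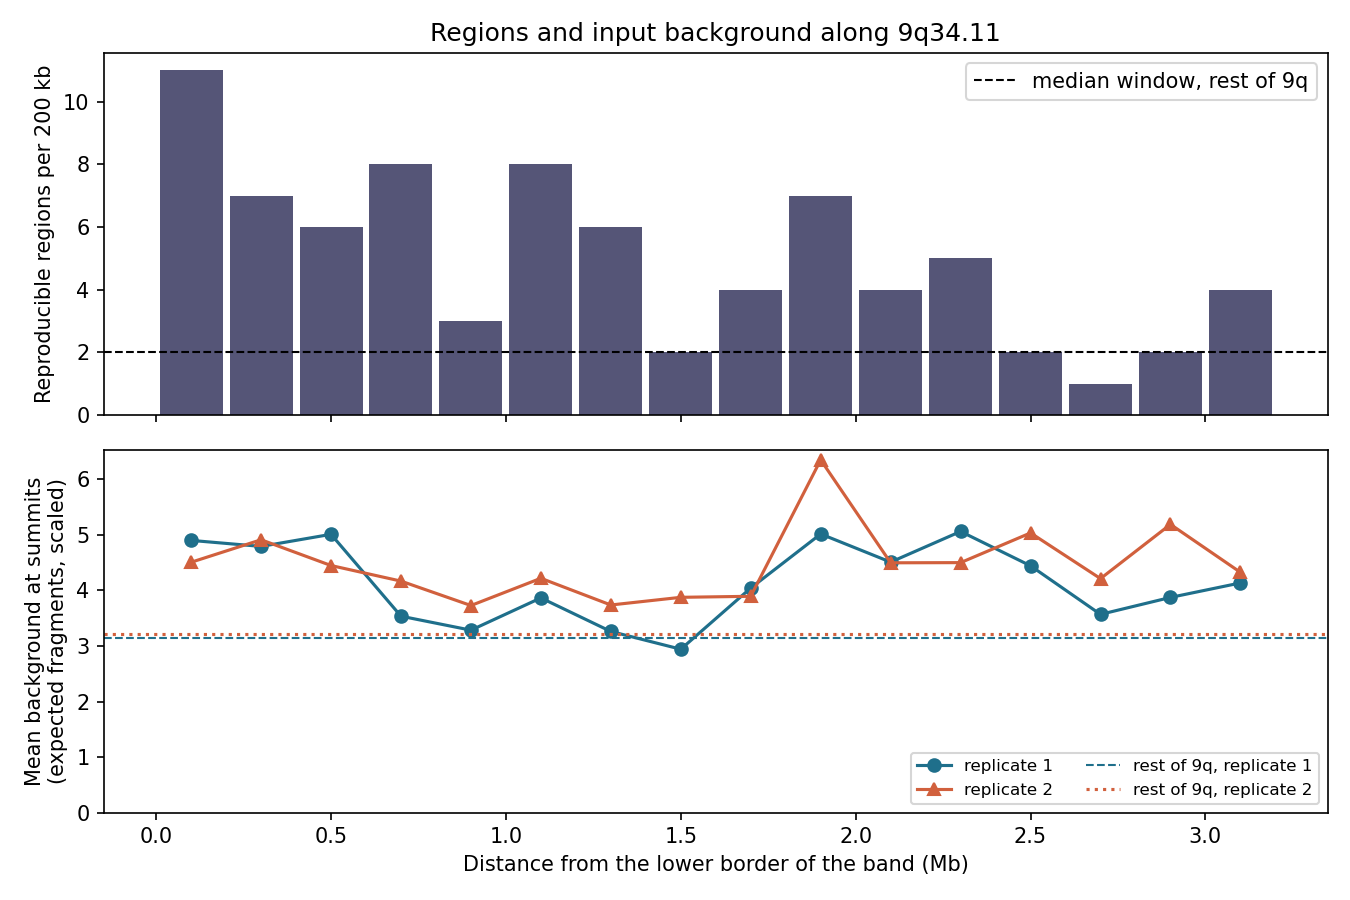
Bars (top) count reproducible regions in 200-kb windows from the band's lower border, with the median window of the rest of 9q dashed at 2, and lines (bottom) give the mean background at all summits of each replicate in expected fragments. The count runs from 11 in the first window to 1 in the fourteenth, whereas background stays above 2.9 throughout.

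Neighbouring sites formed tight groups. A region of the band lay a median of 15.1 kb from the next along the chromosome, against 40.6 kb in the rest of 9q, and 40 of 80 (50%) had another within 10 kb against 37.8%. A denser band brings sites closer by itself. In bands of like density this share was 45.3% (9q31.3), 46.8% (20q13.13), 49.2% (17q21.2) and 50% (11q13.1), near that of 9q34.11. There were 9 groups of at least 3 regions with no more than 10 kb between neighbours, and they held 32 of the 80 regions. Such groups held 112 of 784 regions in the rest of 9q and 3101 of 25522 on all chromosomes outside the band. In the bands of like density they held 17 of 86 (9q31.3), 26 of 94 (20q13.13), 14 of 61 (17q21.2) and 23 of 66 (11q13.1). Of the 9 groups in 9q34.11, the strongest by mean fold was a group of 3 at chr9:130361490-130377720 (29.1 ± 14.7, SD over regions), which includes R8 and R9. The group of 4 at chr9:130324081-130336061 averaged 25.4 ± 7.81, with 106 to 248 fragments in replicate 1 and 138 to 248 in replicate 2.

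The largest group had 5 regions, R27 to R31, inside 12.4 kb at chr9:131062001-131074378. Its members were of middling strength, with a mean fold of 15.6 ± 3.24 (SD over regions), 59 to 102 fragments in replicate 1 and 63 to 103 in replicate 2. A further peak of both lists lay among them at chr9:131070021-131070408 but was left out of the IDR table, with folds of 16.5 in replicate 1 and 4.72 in replicate 2. Its 71 and 46 fragments stood on backgrounds of 3.06 and 7. R31, at the end of the group, had 84 fragments in replicate 2 and 102 in replicate 1. It was among the 5 regions of the band with fewer raw fragments in replicate 2.

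Groups of 4 also lay at chr9:131441170-131451082 (13.8 ± 4.30) and chr9:131622504-131641051 (21.6 ± 8.82), the latter led by R45. Groups of 3 lay at chr9:130563123-130574618 (13.4 ± 3.17), chr9:132096216-132110517 (20.8 ± 7.13) and chr9:132337109-132356261 (15.1 ± 2.71). The most compact group of 3, R77 to R79, spanned 2.98 kb at chr9:133320964-133323947 with a mean fold of 19 ± 5.71. It stood on the highest background of the 9 groups in replicate 2, 9.59 expected fragments, and averaged 6 in replicate 1.

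The 3 longest stretches without a reproducible region lay in the upper part of the band. The first ran for 307 kb between R74 and R75, from chr9:132975333 to 133282572, and held 3 peaks of each list with folds of at most 6.78 and 9.31. The next were 155 kb from 132369908, with 7 and 8 peaks, and 144 kb from 132831079, with 9 and 7 peaks. No peak in these 3 stretches had a fold above 9.90. Each of them thus held weaker peaks of both lists.

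Of hg19 gene models, only that of CERCAM was at hand inside the band, from the UCSC sample table shipped with GenomicFeatures. CERCAM encodes a protein named for cerebral endothelial cell adhesion. It lies on the plus strand at chr9:131174045-131199630, and no reproducible region fell inside it. The nearest summit, that of R34, lay 16.3 kb past its end. Both lists had a weak peak in the intron after exon 9 of its longest transcript, with summits at 131192146 (fold 5.52, 24 fragments) in replicate 1 and 131192141 (fold 9.05, 44 fragments) in replicate 2. Another shared weak peak lay upstream of the start of the transcript uc010mxz.3, by 123 bp in replicate 1 (fold 5.94) and 104 bp in replicate 2 (fold 3.34), which is intronic in the longest transcript. None of these entered the IDR table.

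CERCAM was taken as a dividing point only because its model was at hand, and the sides held unequal densities. The difference was not tested, and the side before CERCAM includes the first window of 200 kb with its 11 regions. The 0.87 Mb before it held 33 regions, 37.8 per Mb (95% exact Poisson interval 26.0 to 53.0) with a median fold of 17.6, and the rest of the band after it held 47, 20.4 per Mb (15 to 27.2) with a median of 15. In RefSeq's gene order on GRCh38.p14, which gives neighbours and no hg19 positions, 13 of 28 listed genes of the area come before CERCAM. Among them are CDK9, ENG, SLC25A25, a mitochondrial carrier, PTGES2, LCN2 and DNM1, a dynamin of endocytosis. The 15 genes after it include SPTAN1, SET, a histone chaperone, LRRC8A, a subunit of the volume-regulated anion channel, CRAT, PTGES, TOR1A and ASS1. The list was chosen with these data known, and the order places no site at a gene.

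Peaks of the band were shared between the lists about as often as elsewhere on 9q. Of 243 peaks of replicate 1, 200 met one of replicate 2 by at least 1 bp (82.3%, interval 76.9 to 86.9%, exact binomial at 95%), against 82.5% in the rest of 9q. Of 294 peaks of replicate 2, 199 met one of replicate 1 (67.7%, 62.0 to 73.0%), against 64.0%. Peaks behind the IDR table made up 32.9% of the band's peaks in replicate 1 and 27.2% in replicate 2, against 34.4% and 26.7%. The excess of peaks was therefore not limited to the reproducible ones. Peaks without a partner were 2.27 times as dense in the band as in the rest of 9q in replicate 1 and 1.90 times in replicate 2.

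Peaks without a partner were weak. The 43 of replicate 1 had a median fold of 4.09 and 20 fragments, and the 95 of replicate 2 had 4.45 and 24 fragments. In replicate 1 the strongest by fold were at chr9:132142892-132143107 (7.99), chr9:132077362-132077577 (6.80) and chr9:130341325-130341582 (6.51, on 50 fragments over a background of 6.27). In replicate 2 they were at chr9:130609535-130609788 (10.7, on 56 fragments), chr9:130923454-130923782 (10.5) and chr9:133273105-133273348 (9.31).

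A second class was shared by both lists and yet outside the IDR table, 120 peaks in replicate 1 and 119 in replicate 2. Their median folds were 5.23 and 6.04. Apart from the peak inside the group of 5, the strongest in replicate 1 were at chr9:132037942-132038257 (11.6, against 5.11 in replicate 2) and chr9:131866827-131867067 (11 against 6.97). The strongest in replicate 2 were at chr9:131925201-131925914 (14.2 against 6.97 in replicate 1), chr9:132669954-132670251 (12.9 against 6.08) and chr9:131290525-131290873 (11.6 against 6.87). At chr9:132669954-132670251 the fragments were 58 in replicate 1 and 60 in replicate 2, not corrected for depth, over backgrounds of 8 and 2.79.

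Within the 80 regions the summits of the replicates lay close together. All 80 pairs of summits lay within 50 bp, with a median distance of 6 bp and a largest of 39 bp. Over the 80 regions the log2 fragments of the replicates had a Pearson r of 0.94 and a Spearman rho of 0.95, and the log2 folds had 0.71 and 0.69. In the rest of 9q these were 0.91 and 0.91 for fragments and 0.67 and 0.66 for fold. The background of the replicates had an r of only 0.55 in both areas. These correlations run across sites of the same libraries and are descriptions. Of the 20 regions leading in each replicate, 18 were common to both by fragments and 15 by fold. Regions of both areas entered the IDR table by being found in both replicates with matching rankings. Close summits, high correlations and shared leading regions are thus partly given by that choice, and are no separate support for reproducibility. Summit distances were not compared with those of the rest of 9q.

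**Figure D5:**
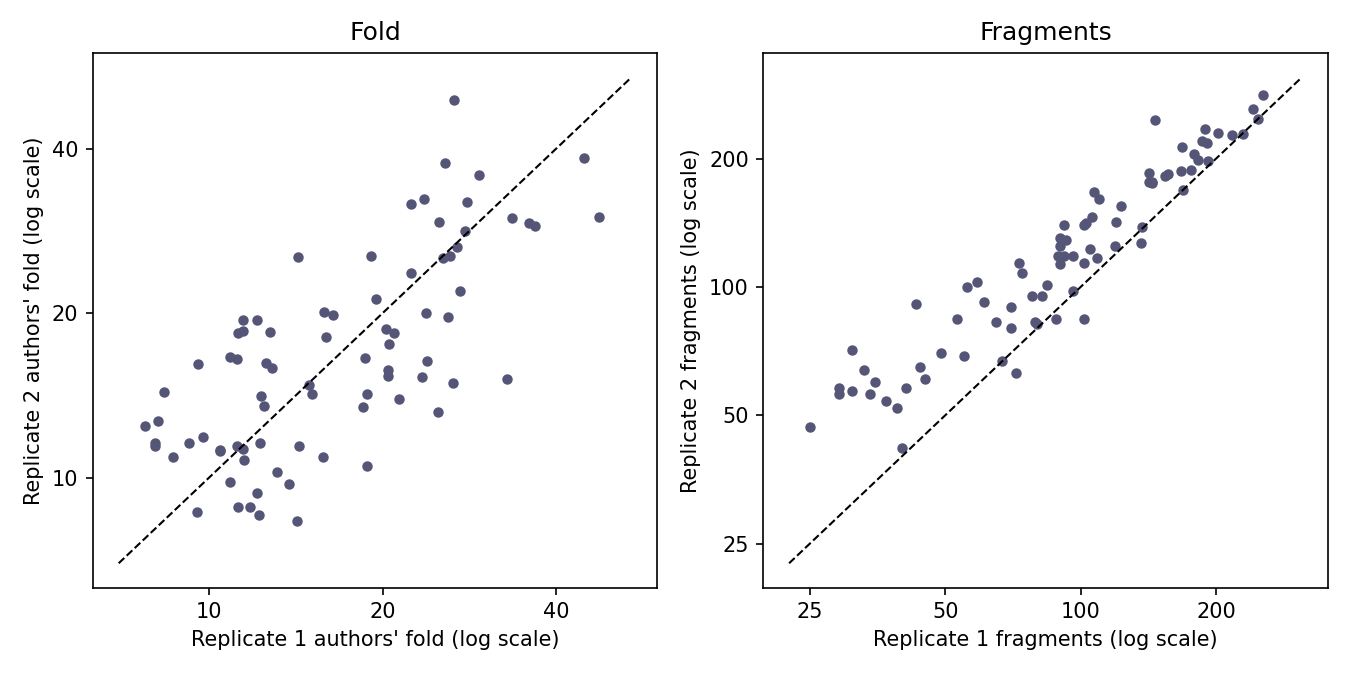
Each point is 1 of the 80 reproducible regions of 9q34.11, with replicate 1 on the x axis and replicate 2 on the y axis, both on log scales, for the authors' fold (left) and for fragments (right), and equality dashed. Fragments, not corrected for depth, lie in a narrow strip mostly above equality (72 of 80), whereas folds scatter to both sides.

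Before any correction for depth, replicate 2 had more fragments at 72 of the 80 regions, fewer at 5 and equal numbers at 3. The median ratio was 1.25 (0.82 to 2.29), below the implied depth ratio of 1.57. To ask which regions departed from what is usual at their height, each was tested against the median share of regions of like height, by exact binomial tests with Benjamini-Hochberg adjustment over all 25602 regions. This compares a pair of libraries, not conditions. By this rule 2.92% of all regions differed, 1.22% of all with more fragments in replicate 2 than usual. In the band 1 of 80 (1.25%) did, in the direction of replicate 2, and 7 of 80 had an unadjusted p of at most 0.05, against 16.5% of all regions. At 80 regions, 1 call is near that background.

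The region that differed was R79 at chr9:133323393-133323947, with 146 fragments in replicate 1 and 246 in replicate 2. Relative to regions of like height replicate 2 was 1.47 times higher (adjusted p = 0.0164, exact binomial test with Benjamini-Hochberg adjustment). Its fold went the other way, 27.3 in replicate 1 and 22 in replicate 2, over backgrounds of 4 and 8. The call was lost with a beta-binomial test that allows for the spread between replicates (adjusted p = 0.817) and with a single share for all heights (adjusted p = 0.124).

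The borders of the band follow the cytogenetic map. Just inside the lower border were R1 at chr9:130300981-130301361, 1.16 kb in, with a mean fold of 14.4, and R2 at chr9:130324081-130324644 with 17.6. Just outside were regions at chr9:130248198-130248573 with 9.97 and chr9:130150276-130151123 with 16.8. At the upper border R79 and R80, with 24.6 and 32.6, were the last inside. The regions at chr9:133608102-133608564 with 28.5 and chr9:133656268-133657009 with 19.3 followed outside.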

How the data were processed

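CEBPB peaks of 2 ChIP samples and the table of their IDR were analysed. Per the submitters' processing notes, Bowtie2 2.3.4, MACS2 2.1.2, SAMtools 1.9, bedtools 2.25.0 and FastQC 0.11.7 were used with the hg19 build, without settings named. The deposited lists give each summit a fold (a ratio over input background) and a −log10 p and q, called per sample over input, per the file headers. The deposited IDR table gives a −log10 IDR for each pair, and every entry has an IDR of at most 0.05. Its 4 other columns of values per sample were not used.

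Fragments and background were solved from the fold and −log10 p of each summit under the arithmetic of the peak caller, with a scale per ChIP read of 0.927 in replicate 1 and 0.800 in replicate 2. Whole fragments resulted at 100% of summits within 0.005 on the −log10 p, and the step was tested on simulated data. Entries of 1 interval count as 1 region. For each region the share of fragments from replicate 2 was set against the median share of its 1000 neighbours in height, by an exact binomial test. Band limits came from circlize 0.4.16. Positions count from 1. Scripts ran under Python 3.11.15 with pandas 2.3.3, SciPy 1.17.1, matplotlib 3.10.9 and NumPy 2.4.6. Poisson and binomial intervals, at the 95% level, cover counting error only, and reads are not independent molecules.

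The band, its regions and the gene list were chosen with earlier results of these data known, and 1 gene of that list is not reported here. Named were the 20 strongest regions by mean fold, groups of at least 3, the 3 strongest peaks of each class outside the IDR table, the region that differed, the regions beside each border and the 3 longest stretches without a region. R71 and R78, the summits of R59 and R67 and the peaks in CERCAM were singled out after their values were seen. No hg19 sequence was used here, so no sequences, motifs or promoter shares are given.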

Additional observations from a re-analysis of the deposited data

How the results depend on the processing

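The density ratio, 2.17, was 2.30 at an IDR of at most 0.01, 2.27 with summit pairs at a q-value of at most 0.01 in place of the IDR table, 2.97 against chromosomes 1 to 22 and X, and 2.00 without the first 200 kb, an alternative chosen after seeing the data. With 1 list alone it was 2.12 to 2.25, from the same lists that supplied the regions. The median fold, 15.9, was 19.7 at an IDR of at most 0.01 and 15.8 to 16.0 with 1 replicate. The background ratio, 1.36 over both replicates, was 1.32 above the floor, 1.29 against Giemsa-negative bands and 1.34 to 1.38 with 1 replicate. Of all regions 748 differed between the replicates, 370 at an IDR of at most 0.01, where fewer regions were tested, and 8 by a beta-binomial test; in the band 1 differed, 0 with a single share for all heights and 0 by the beta-binomial test. The share of regions with a neighbour, 50% at 10 kb, was 37.5% at 5 kb and 80% at 25 kb (24.1% and 57.8% in the rest of 9q), and 81.1 to 86.4% for the peak intervals of 1 list, which are denser. The shares of peaks found in both lists moved by less than their intervals under the alternatives tried. The promoter and motif alternatives were not run, since no hg19 genome was used. No paired analysis was possible because input reads enter only in the caller's expected background and no test set ChIP against input samples. Peaks of the band were called down to 11 fragments in replicate 1 and 13 in replicate 2, and weaker sites cannot be seen in these lists.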
